A study of Mus musculus with 6 samples.

Results

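The endothelin system of the ischemic mouse retina was described through 7 genes of the 32285 in the deposited table: the ligands Edn1, Edn2 and Edn3, the receptors Ednra and Ednrb, and the converting enzymes Ece1 and Ece2. They were chosen by name, with the difference between the 2 groups of these same libraries already known, so that this difference is a description. No p is given for it, and where a gene met the call rule used for the whole table, that is stated as a property of the values behind the choice and supports nothing. All mice were wild-type C57BL/6J pups that had spent PN8 to PN13 with their mothers in 75% O2, which closes the central retinal capillaries (oxygen-induced retinopathy, OIR). OIR-CIH pups then underwent chronic intermittent hypoxia (CIH), 10 h of each day in 266 cycles of 135 s that took the cage from 20.95% O2 to 5% and back, while OIR-Norm pups received the same gas flow at constant O2. Retinal RNA was sequenced at PN18 from 3 OIR-CIH and 3 OIR-Norm samples. All samples went through OIR, and retinas never exposed to hyperoxia were not analysed here.

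Endothelins are short peptides that constrict vessels and also act on glia and neurons. Each is cut from a longer precursor, first by furin-like convertases and then by an endothelin converting enzyme. The released peptide acts on G protein-coupled receptors, ETA (Ednra) and ETB (Ednrb). ETA binds endothelin-3 weakly, whereas ETB binds all the ligands and also clears them from tissue. In the eye Edn1 is best known from endothelial cells and Ednra from pericytes and smooth muscle, while Ednrb is found on Müller glia and astrocytes. Edn2 is known as a transcript that injured photoreceptors switch on, with Müller glia as its target, and its forced expression in photoreceptors disturbs retinal vessel growth.

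The stretch that codes for the mature peptide shows how alike the ligands are, and is given for each from the GENCODE M21 transcripts (GRCm38, plus strand, exon 2 of 5 of the annotated transcript), in lower case with its 4 cysteine codons in capitals.
Edn1 (chr13:42303649-42303711): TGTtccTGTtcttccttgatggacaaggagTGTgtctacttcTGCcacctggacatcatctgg
Edn2 (chr4:120161951-120162013): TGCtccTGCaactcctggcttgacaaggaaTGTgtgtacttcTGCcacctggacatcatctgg
Edn3 (chr2:174761749-174761811): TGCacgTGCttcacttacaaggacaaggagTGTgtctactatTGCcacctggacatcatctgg
The cysteine codons stand at positions 1, 3, 11 and 15 of 21 in all of them, where they form the paired disulphide bridges of the peptide. Edn1 and Edn2 shared 53 of the 63 bases and the same residue at 18 of 21 codons. Edn3 shared 50 bases with Edn1 and 48 with Edn2, and 15 residues with each. The last codons, which make the receptor-binding tail, were identical in the 3 genes, and the differences lay toward the start.

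The deposited values are raw read counts per gene, with totals of 26289905 to 38010151 per library. They were converted to CPM, counts per 1000000 reads, with library sizes adjusted by the trimmed mean of M-values (TMM). All 7 genes were among the 20021 with a total count of at least 10. A call needed an adjusted p under 0.05 and a log2 fold change beyond 0.5 in edgeR's quasi-likelihood test. Retinal transcripts were present in each library, with the ganglion cell gene Rbpms at 34.7 to 44.2 CPM. Xist and Y-linked transcripts were both counted in 6 of 6 libraries, while the extraction protocol in the labels lists 3 eyes for each group, which would make a library 1 eye. A single eye would not carry both kinds of transcript, and whether eyes were pooled or RNA or reads passed between libraries was not tested. The n given is the number of libraries. One library stood apart: the 8 lens genes measured summed to 560 CPM in OIR-Norm replicate 2 and to 19.0 to 87.2 in the other 5.

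Edn2 (chr4:120161206-120167360, plus strand) was the most abundant ligand transcript and the one that differed most between groups. It had 14.8, 15.2 and 19.4 CPM in the OIR-Norm libraries and 3.53, 4.54 and 2.91 CPM in the OIR-CIH libraries. Every OIR-CIH library was below every OIR-Norm library, and the gap between the lowest OIR-Norm and the highest OIR-CIH value was wider than the spread within either group. The OIR-Norm mean of 16.5 ± 2.57 CPM (SD, n = 3) was 4.49 times the OIR-CIH mean of 3.66 ± 0.823 CPM (SD, n = 3). On 90 to 618 reads per library, the log2 fold change was -2.18 (standard error 0.17). Leaving out any single library kept it between -2.37 and -2.02.

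Edn2 was the member that met the call rule, 1 of 7, beside 0.315% of all genes tested and 0.21% called lower in OIR-CIH. Since the genes were named with this contrast known, nothing is read from that share. Fewer cells that express a gene and less RNA per cell cannot be told apart in whole retina. The 13 rod genes summed to 66322 to 76201 CPM in OIR-CIH and to 57691 to 75193 CPM in OIR-Norm, and 12 of the 13 had higher point estimates in OIR-CIH, with 0 called. Per 1000 CPM of these rod transcripts Edn2 amounted in OIR-CIH to 0.0523 ± 0.0142 CPM (SD, n = 3) and in OIR-Norm to 0.256 ± 0.0563 (SD, n = 3). The log2 ratio of these means was -2.29. The part of photoreceptor content in the Edn2 values was not tested.

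Edn3 (chr2:174760619-174784042, plus strand), the ligand with the strongest preference for ETB, was near the lower end of detection. It was counted 37, 31 and 36 times in the OIR-Norm libraries and 11, 7 and 17 times in the OIR-CIH libraries. The exact 95% Poisson intervals, which cover counting error only, reached from 21.1 to 51.0 reads over the OIR-Norm libraries and from 2.81 to 27.2 over the OIR-CIH libraries. The groups did not overlap, although the intervals of single libraries did. The OIR-Norm mean was 1.14 ± 0.0572 CPM (SD, n = 3) and the OIR-CIH mean 0.375 ± 0.115 CPM (SD, n = 3). The fitted difference was -1.58 on the log2 scale (standard error 0.33). Edn3 was not called by edgeR but was called by DESeq2, where 0.674% of genes were called and 0.504% were called lower. It was also called by limma, where 66 of 20021 genes were called, 45 of them lower. In limma the 0.5 CPM added before the logarithm is above the OIR-CIH mean of Edn3 and below its OIR-Norm mean. The log2 fold change of Edn3 was -0.91 there.

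Edn1 (chr13:42301476-42307990, plus strand), the endothelial ligand and a known target of hypoxia-inducible factors, gave no stable difference. It had 1.91, 4.42 and 1.10 CPM in the OIR-Norm libraries and 1.69, 1.80 and 1.77 CPM in the OIR-CIH libraries. The OIR-CIH values lay within the OIR-Norm range, which was set by a single high library, replicate 2. The OIR-CIH values had a coefficient of variation of 3.42%, less than the 13.6% that counting alone gives on average at this depth, against 69.8% in OIR-Norm. The log2 fold change of -0.47 (standard error 0.40) became 0.23 without OIR-Norm replicate 2, a change of direction, and was -0.84 without OIR-Norm replicate 3.

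The high Edn1 library was also the highest in vascular and lens transcripts. The 14 endothelial genes summed to 333, 408 and 299 CPM in the OIR-Norm libraries and to 297, 304 and 345 CPM in the OIR-CIH libraries. The 12 pericyte and smooth muscle genes summed to 160, 246 and 101 CPM in OIR-Norm and to 94.3, 110 and 143 CPM in OIR-CIH. Within OIR-Norm, Edn1 and both vascular sums had the same order, with replicate 2 above replicate 1 and replicate 3 lowest. Within OIR-CIH they did not: Edn1 was highest in replicate 2 and both vascular sums in replicate 3. Per 1000 CPM of endothelial transcripts Edn1 was at 5.58 ± 0.402 CPM in the OIR-CIH group and at 6.75 ± 3.68 CPM in the OIR-Norm group (SD, n = 3 each). Kdr, named for its share of the sum, had a mean of 171.5 of 315.7 CPM in OIR-CIH and 172.4 of 346.6 CPM in OIR-Norm. This scale therefore rests largely on 1 gene that was alike in both groups. Of the endothelial genes 11 had lower and 3 higher point estimates in OIR-CIH, and all 12 of the pericyte and smooth muscle genes had lower ones, with 0 called in either list. The part of vascular or lens RNA in the Edn1 values was not tested.

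**Figure D1:**
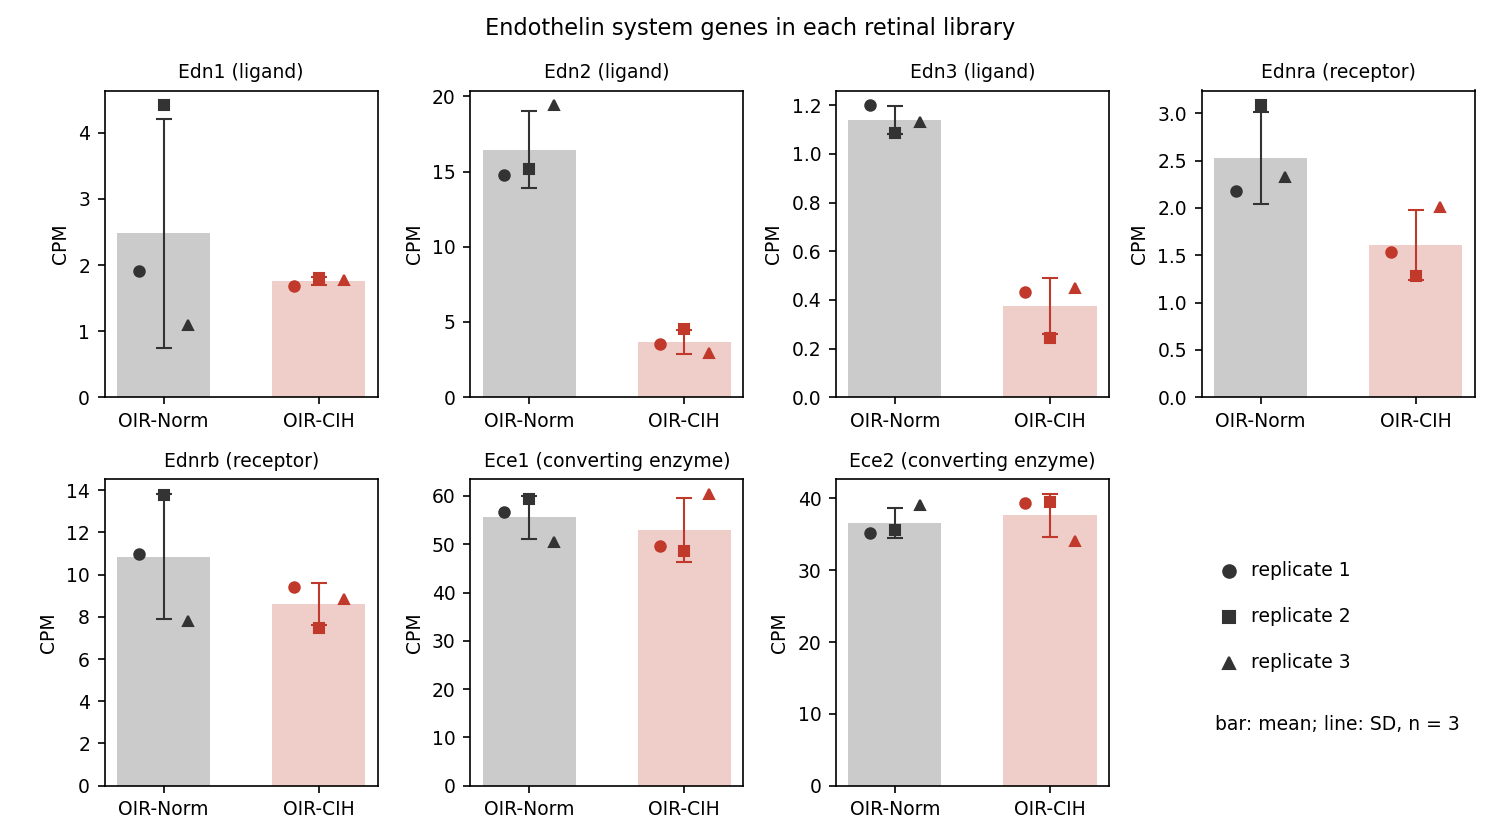
CPM of the 7 endothelin genes in each retinal library, with bars at the group mean and lines of 1 SD (n = 3); each panel has its own axis from 0. Edn2 and Edn3 lie lower in every OIR-CIH library, whereas the OIR-Norm values of Edn1 run from 1.10 to 4.42 CPM and enclose the OIR-CIH values.

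Added together, the ligands made up 17.9, 20.7 and 21.6 CPM in the OIR-Norm libraries and 5.65, 6.59 and 5.13 CPM in the OIR-CIH libraries. Most of that pool was Edn2 in either group. Its share of the summed ligand reads averaged 81.9% ± 8.20 over the OIR-Norm libraries and 62.7% ± 6.13 over the OIR-CIH libraries (SD, n = 3 each). Edn1 held 12.4% ± 8.29 of the OIR-Norm and 30.6% ± 3.64 of the OIR-CIH pool (SD, n = 3 each), and its OIR-Norm share was 7.88% without OIR-Norm replicate 2. The larger share of Edn1 in OIR-CIH stood beside a smaller pool, not a higher mean level of Edn1. Edn3 held 5.73% ± 0.842 and 6.70% ± 2.67 (SD, n = 3 each). Corrected for exon length, Edn2 made up 88.5% ± 6.43 of the OIR-Norm pool and 72.8% ± 4.77 of the OIR-CIH pool (SD, n = 3 each).

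**Figure D2:**
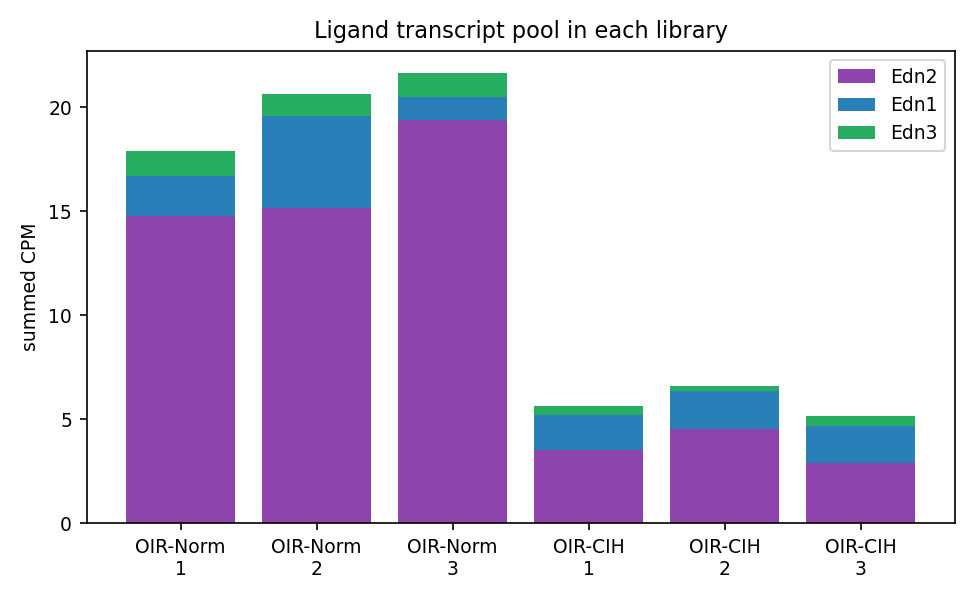
Summed CPM of the 3 endothelin ligand genes in each library, stacked by gene. The OIR-Norm pools stand at 17.9 to 21.6 CPM and the OIR-CIH pools at 5.13 to 6.59 CPM, and Edn2 forms the largest block in all 6.

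The promoters of the lower ligands were read from RefSeq (GRCm38.p6) over the 250 bases before the annotated start, both on the plus strand, with matches to the motifs searched in capitals.
Edn2 (chr4:120160956-120161205): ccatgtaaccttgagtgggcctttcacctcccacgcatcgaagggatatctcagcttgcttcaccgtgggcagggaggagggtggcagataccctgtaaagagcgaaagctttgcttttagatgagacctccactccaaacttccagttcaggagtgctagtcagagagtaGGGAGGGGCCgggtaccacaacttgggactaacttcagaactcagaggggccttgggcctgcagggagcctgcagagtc
Edn3 (chr2:174760369-174760618): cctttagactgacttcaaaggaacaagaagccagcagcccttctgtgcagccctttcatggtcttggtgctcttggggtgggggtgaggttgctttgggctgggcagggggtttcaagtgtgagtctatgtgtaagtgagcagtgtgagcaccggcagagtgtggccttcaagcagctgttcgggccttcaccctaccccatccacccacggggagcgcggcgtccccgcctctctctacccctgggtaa
Both strands were searched for ACGTG (the core of hypoxia response elements), CACGTG (E-box, which contains it), TTCNNNGAA (STAT), TGANTCA (AP-1), TAATCC (the photoreceptor factor CRX) and GGGA followed by any 4 bases and CC (NF-kB). The Edn2 window held 1 match, to the NF-kB pattern from 79 to 70 bases before the start, and the Edn3 window held none. Of 32536 distinct windows of this length, 17.7% held the NF-kB pattern, 16.7% the hypoxia core, 6.04% the E-box, 7.04% the STAT, 6.73% the AP-1 and 6.25% the CRX pattern. The Edn1 window also held none of the 6, Ednra held an NF-kB match, Ednrb a CRX match and Ece2 a hypoxia core. Of the 4 Ece1 windows 1 held an E-box with its hypoxia core and an NF-kB match.

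Both receptor genes were lower in OIR-CIH by point estimate. Ednra (chr8:77663031-77724464, minus strand) had 2.17, 3.09 and 2.32 CPM in the OIR-Norm libraries and 1.53, 1.28 and 2.01 CPM in the OIR-CIH libraries. The groups did not overlap, but the highest OIR-CIH and the lowest OIR-Norm library were close. Its mean was 2.53 ± 0.489 CPM in OIR-Norm and 1.61 ± 0.370 CPM in OIR-CIH (SD, n = 3 each). The log2 fold change was -0.62 (standard error 0.24), and -0.46 without OIR-Norm replicate 2. Per 1000 CPM of the pericyte and smooth muscle transcripts among which Ednra is known, the OIR-CIH group was at 14.0 ± 2.26 CPM and the OIR-Norm group at 16.4 ± 5.78 CPM (SD, n = 3 each), and on that scale the groups overlapped. Rgs5, named for its share of that sum, had a mean of 75.7 of 115.7 CPM in OIR-CIH and 115.5 of 169.3 CPM in OIR-Norm.

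Ednrb (chr14:103814625-103844402, minus strand) had 10.97, 13.8 and 7.82 CPM in the OIR-Norm libraries and 9.42, 7.49 and 8.87 CPM in the OIR-CIH libraries. The lowest OIR-Norm library lay among the OIR-CIH values and OIR-Norm replicate 2 was again the highest. The log2 fold change of -0.33 (standard error 0.18) shrank to -0.13 without that library. The 12 Müller glia genes summed to 4644 to 5611 CPM in OIR-CIH and 4615 to 5195 CPM in OIR-Norm, with 5 lower, 7 higher and 0 called. The 7 retinal astrocyte genes summed to 138 to 146 CPM in OIR-CIH and 201 to 250 CPM in OIR-Norm, with Gfap, which reactive Müller glia express as well, the gene called. Gfap alone had a mean of 63.8 CPM of the mean sum of 141 CPM in OIR-CIH, and 141.6 of 232.5 CPM in OIR-Norm. The pigment epithelium, melanocyte and ciliary body genes, 17 in all, summed to 912 to 1177 CPM in OIR-CIH and 692 to 1067 CPM in OIR-Norm. Of these, 9 were lower, 8 higher and 0 called. Rlbp1, which is also among the Müller glia genes, had a mean of 519.4 of 1021 CPM in OIR-CIH and 409.9 of 860.4 CPM in OIR-Norm. The part of cell content in the Ednrb values was not tested.

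The converting enzymes had the highest CPM of the 7 genes in each group and the smallest log2 fold changes. Ece1 (chr4:137862237-137965229, plus strand), the enzyme of endothelial and many other cells, had 56.7, 59.4 and 50.5 CPM in OIR-Norm and 49.6, 48.6 and 60.5 CPM in OIR-CIH. Ece2 (chr16:20629828-20646485, plus strand), the enzyme of neurons, had 35.1, 35.6 and 39.0 CPM in OIR-Norm and 39.3, 39.5 and 34.1 CPM in OIR-CIH. The groups overlapped for both genes. Their log2 fold changes were -0.07 (standard error 0.10) and 0.04 (standard error 0.09), and with 1002 to 2286 reads per library they were also the most deeply counted genes of the set.

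**Figure D3:**
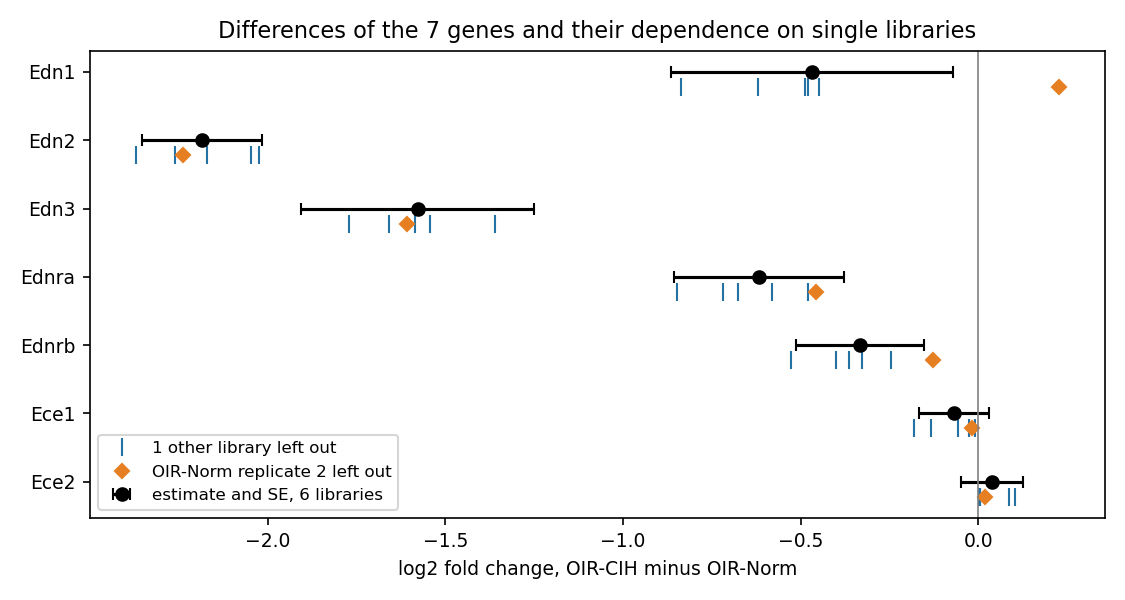
Log2 fold change of OIR-CIH against OIR-Norm for each gene from edgeR, with its standard error (black) and the values when 1 library was left out (blue ticks, and orange diamonds for OIR-Norm replicate 2). Edn2 stays between -2.37 and -2.02 and Edn3 between -1.77 and -1.36, while Edn1 crosses 0 to 0.23 without OIR-Norm replicate 2.

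Of the 7 genes, 6 had lower and 1 had higher point estimates in OIR-CIH. Their median difference was -0.47 on the log2 scale, beside -0.01 over all genes tested. The groups did not overlap for 3 of the 7, all of them lower in OIR-CIH (Edn2, Edn3 and Ednra), where 9.26% of all genes were separated in that direction, 9.12% in the other and 18.4% in either. The other 4 overlapped. Antisense genes that overlap Edn1, Ednra and Ece1 had at most 4 reads in any library. Ece2 shares its locus with the read-through gene model Gm49333, not used here, so that its count may depend on how such reads were assigned.

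Levels of different genes were compared as CPM per kilobase of annotated exon within each of the 6 libraries, a measure that did not enter the choice of the genes. From the top the order was Ece1, Ece2, Edn2, Ednrb, Edn1, Ednra and Edn3, with mean levels per kilobase of 10.2 ± 0.994, 7.26 ± 0.471, 6.88 ± 4.93, 2.28 ± 0.550, 0.989 ± 0.544, 0.378 ± 0.116 and 0.184 ± 0.104 CPM (SD, n = 6 libraries of both groups). Ednrb was above Edn1, Edn1 above Ednra and Ednra above Edn3 in 6 of 6 libraries, each with an adjusted p of 0.0469 by an exact two-sided permutation test over the 6 libraries (unadjusted p = 0.0312, the smallest that 6 libraries allow), over 6 neighbouring pairs. The pairs were neighbours in the mean order of these same libraries, so the direction of each mean difference was set beforehand. The spread of Edn3 over the 6 libraries also contains the group difference known when the genes were chosen. Nothing is therefore read from the p of Ednra against Edn3. By level per length the ETB receptor gene was well above the ETA receptor gene. The ratio of Ednrb to Ednra lay between 4.32 and 7.90 in the 6 libraries.

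The order was less firm in several places. Ece1 was above Ece2 in 6 of 6 libraries (adjusted p = 0.0469, the same exact test), but when the longest annotated transcript was taken as the length this held in 3 of 6 libraries with a mean log2 difference of 0.06. The step from Edn1 to Ednra was 1.31 on the log2 scale and 0.71 with that length, where it held in 5 of 6 libraries (exact permutation test, unadjusted p = 0.0625). For Edn2 the adjusted p was 0.406 against Ece2 and 0.075 against Ednrb by the exact permutation test. That test cannot place Edn2, since its spread over the 6 libraries contains the group difference known when the genes were chosen. Its place differed by group. Edn2 minus Ednrb was 2.17 on the log2 scale in OIR-Norm and 0.30 in OIR-CIH, and Ece2 minus Edn2 was -0.64 and 1.58. In OIR-Norm it was above Ece2, by 0.64 on the log2 scale in the mean, and had the level of the enzymes, whereas in OIR-CIH it stood near Ednrb. The step from Ednra to Edn3 differed by group as well. It was 0.72 on the log2 scale in OIR-Norm and 1.72 in OIR-CIH.

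**Figure D4:**
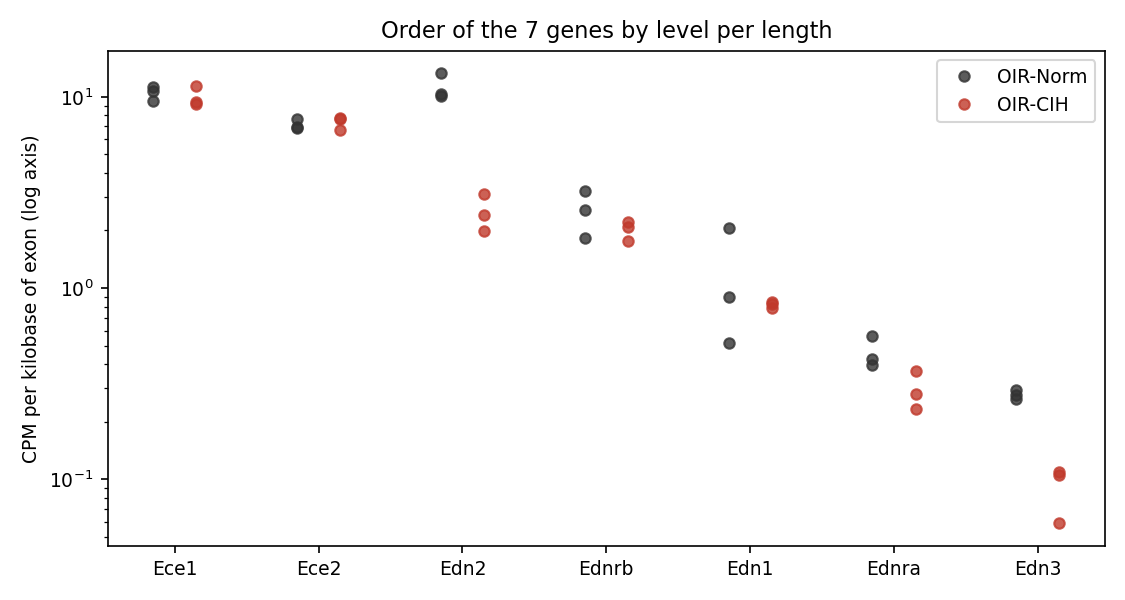
Level of each endothelin gene per kilobase of exon in the 6 libraries, on a log axis, ordered by the mean log2 level. The 3 OIR-Norm points of Edn2 lie at 10.1 to 13.3 CPM per kilobase beside the converting enzymes and its OIR-CIH points at 1.99 to 3.11, close to Ednrb.

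Other genes with the most similar pattern over the 6 libraries were sought by Pearson's r of log2(CPM + 0.5) among genes with a mean of at least 1 CPM, about 14800 for each member; the groups form clusters in such a measure, and with 6 points and so many candidates high values are reached by many genes. For Edn1 they were Ccn1 (r = 0.995), which encodes a matricellular protein, the small heat shock protein gene Cryab (0.991) and the type II collagen gene Col2a1 (0.985). For Edn2 they were Ylpm1 (0.993), Zbtb24 (0.991) and Gm47887 (0.991), and for Edn3 Abcc3 (0.999), Smg6 (0.995) and Arl5b (0.992). For Ednra they were Hmox2 (0.992), which encodes a heme oxygenase, the microglial purinergic receptor gene P2ry13 (0.990) and Gm26724 (0.988), and for Ednrb Micall2 (0.994), the actin regulator gene Wasf2 (0.989) and Eya1 (0.987). For Ece1 they were Clip3 (0.993), Ephb4 (0.987), an ephrin receptor gene of venous endothelium, and Timp2 (0.986), an inhibitor of matrix metalloproteinases. For Ece2 they were the cyclin gene Ccne2 (0.991), Gm37459 (0.984) and Ppil3 (0.983). None of the genes named in this comparison was called between groups by edgeR, with adjusted p from 0.117 to 0.962.

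The machinery around the peptides was examined in a list of 13 genes that make or break down endothelins or belong to the same enzyme family, of which 11 were tested. None was called, 7 were lower and 4 higher by point estimate, and the median log2 fold change was -0.09, beside -0.01 over all genes. At an unadjusted p under 0.05 there were 4 of 11, beside 13.4% of all genes, and DESeq2 called 1, Ecel1. The lowest p were those of Ecel1, a neuronal relative of the converting enzymes that is induced by nerve injury, of the gelatinase gene Mmp2 and of Mme, which encodes neprilysin, a peptidase that degrades endothelins. Ecel1 had 1.61 ± 0.148 CPM in OIR-CIH and 3.10 ± 0.374 CPM in OIR-Norm (SD, n = 3 each), with groups apart and a log2 fold change of -0.94 (adjusted p = 0.0919 from edgeR). Mme and Mmp2 were at -0.55 and -0.36 (adjusted p = 0.287 and 0.133), and Furin, which makes the first cut, at -0.11 (adjusted p = 0.65; this gene was named after its value was seen).

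Of 34 genes that couple the receptors to their effects, 0 were called by edgeR and 1, Gna14, by DESeq2 and limma; 6 of 34 had an unadjusted p under 0.05, beside 13.4% of all genes, with 19 lower, 15 higher and a median of -0.02. Gna14, which encodes an alpha subunit of the Gq class that passes on the receptor signal, had 1.03 ± 0.178 CPM in OIR-CIH and 2.33 ± 0.234 CPM in OIR-Norm (SD, n = 3 each). Its log2 fold change was -1.15 (adjusted p = 0.0738 from edgeR), with groups apart. Rgs2, which encodes an inhibitor of Gq signalling, was at 0.40 (adjusted p = 0.127) and Rock2, a kinase gene of smooth muscle contraction, at -0.25 (adjusted p = 0.243).

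Of 33 tested genes of other vasoactive systems 0 were called by edgeR, DESeq2 called 1 (Ptgfr) and 7 of 33 had an unadjusted p under 0.05, beside 13.4% of all genes, with 18 lower and 15 higher and a median of -0.01. The prostaglandin F receptor gene Ptgfr had 3.69 ± 0.756 CPM in OIR-CIH and 7.35 ± 2.07 CPM in OIR-Norm (SD, n = 3 each; log2 fold change -1.01, adjusted p = 0.113 from edgeR). Angiotensinogen (Agt) was at 0.34 (adjusted p = 0.314) and the apelin receptor gene Aplnr, a gene of sprouting vessels, at -1.12 (adjusted p = 0.326). Aplnr had its highest value, 8.00 CPM, in OIR-Norm replicate 2, the library that was also highest in vascular and lens transcripts, and their part in its value was not tested.

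The genes of the response in which Edn2 is known to take part, from cytokines of the injured retina to reactive Müller glia, formed a further list. Of its 18 tested genes 14 were lower and 4 higher by point estimate, where 50.9% of all genes were lower. In the list 7 genes were called lower and 0 higher, which is 38.9% beside 0.315% of all genes. The median log2 fold change was -0.53. The list was written with the results of these libraries known and its called genes had been seen to differ, so its count is no independent evidence. The called transcription factor genes were Stat3 (-0.63, adjusted p = 0.0062), Cebpd (-1.19, adjusted p = 0.00033) and Bcl3 (-2.15, adjusted p = 0.000188), from edgeR. The other called genes were those of the STAT3 inhibitor Socs3 (-1.34, adjusted p = 0.0276), the growth factor Fgf2 (-1.03, adjusted p = 0.000233), the glial filament gene Gfap (-1.15, adjusted p = 0.000188) and the secreted protease inhibitor Serpina3n (-1.37, adjusted p = 0.000177), all from edgeR. The call of Socs3 was lost when any single OIR-CIH library was left out. The astrocyte sums given above were lower in OIR-CIH as well, but Gfap belongs to both lists and was the largest part of these sums. They are therefore not separate from the list. The sums of 11 microglia genes lay at 116 to 133 CPM against 143 to 162 CPM in OIR-Norm. The part of astrocytes and microglia in this list was not tested.
Lif, the cytokine through which Müller glia answer photoreceptor injury, had 1.21 ± 0.449 CPM in OIR-CIH and 5.79 ± 6.03 CPM in OIR-Norm (SD, n = 3 each). OIR-Norm replicate 2 alone had 12.7 CPM and the other OIR-Norm libraries 2.73 and 1.92 CPM. Its log2 fold change of -2.26 had an adjusted p of 0.222 from edgeR, and it was called with the replicate number as a block. Lif was named after its value was seen.

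Edn1 is known as one of the genes of the hypoxia response, which formed the last list. This list too was written with the results of these libraries known, so its counts are no independent evidence. Of its 22 tested genes 19 were higher and 3 lower by point estimate, with a median of 0.18, where 49.1% of all genes were higher. The groups were apart for 9 of the 22, all higher, beside 9.12% of all genes in that direction. An unadjusted p under 0.05 from edgeR was reached by 7 of the 22, beside 13.4% of all genes, and 1 was called. That gene, Ankrd37, rose from 21.9 ± 1.54 to 34.9 ± 1.47 CPM (SD, n = 3 each), a log2 fold change of 0.67 (adjusted p = 0.00499 from edgeR). Vegfa, named after its value was seen, was at 0.20 (adjusted p = 0.551). The share called, 4.55%, stands beside 0.105% of all genes called higher.

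**Figure D5:**
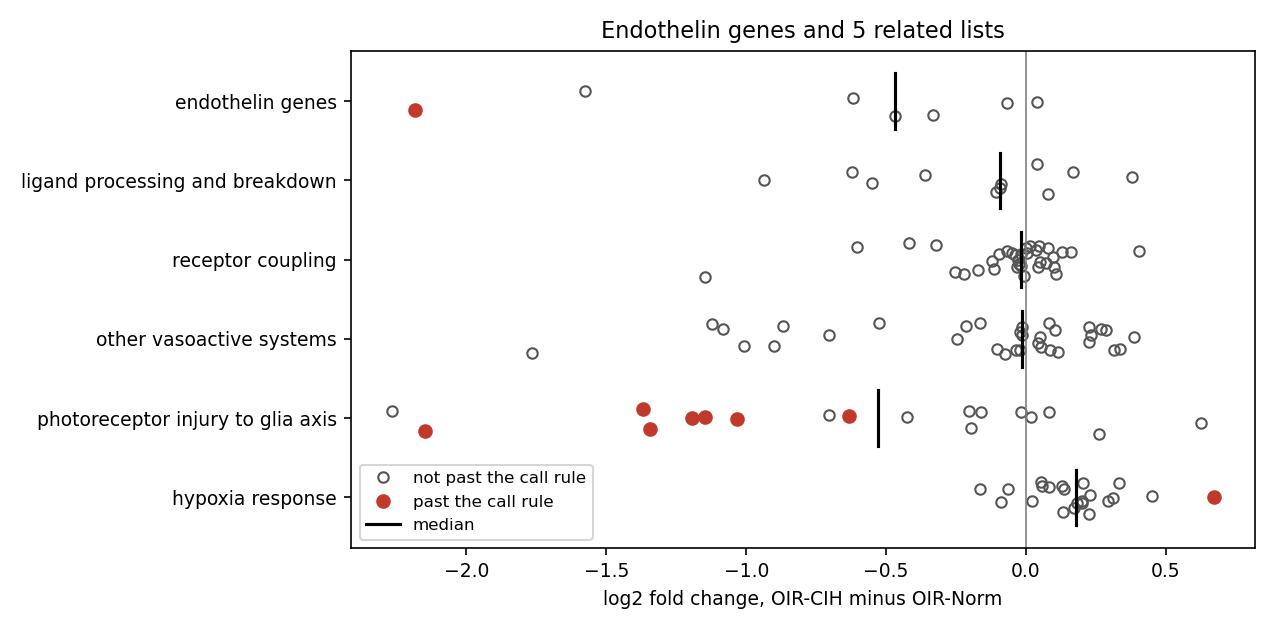
Log2 fold change of OIR-CIH against OIR-Norm for the 7 endothelin genes and for the tested genes of 5 related lists, with filled points for genes past the call rule, bars at the median and a vertical jitter without meaning. The injury list holds 7 filled points to the left of 0, the hypoxia list 1 to the right, and the 3 lists around the peptides and receptors none.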

How the data were processed

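Retinal RNA of 6 libraries, 3 per group, came from 250 ng of total RNA and a stranded poly(A) kit. Alignment by the authors used STAR 2.7.9a, and what they deposited are unnormalized counts of reads per gene. The submitters' processing notes name GRCm38 and the paper a later Ensembl release, and which strand column was kept is not given in the sources used here. Groups came from the sample titles. The 7 members, all lists, motifs and tests were chosen with earlier results of these data known. Counts were scaled by TMM and tested with edgeR 4.0.16 (estimateDisp, glmQLFit, glmQLFTest) in R 4.3.3 over the 20021 genes that reached 10 reads in all, with Benjamini-Hochberg adjustment; standard errors are the log2 fold change over the root of F. The thresholds are those of the study. No p is given for the members in this contrast.

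Symbols matched 32158 of 32285 identifiers in GENCODE M21, which also gave coordinates and exon lengths and is not the annotation the paper names. Of the listed names Ca9, Ero1a and Lim2 matched no symbol; Kel, Cma1, Ren1, Agtr1b and Il6 were under the count minimum. Named genes are the members, the called genes of each related list or otherwise the 3 with the lowest p, and the 3 genes most like a member; others are marked. On simulated counts of 19745 genes, edgeR called 86 of 100 genes changed by 1 on the log2 scale and 100 of 100 changed by 2, all in the right direction, and 7 unchanged ones. The changed genes were drawn only from better counted genes, and the simulated spread followed the trend over genes. The recovery therefore does not cover genes with few reads or single deviating libraries. Alternatives were median-of-ratios scaling, DESeq2 1.42.0, limma 3.58.1 on log2(CPM + 0.5), edgeR's legacy test, other filters, no minimum fold change, a replicate block and leaving out each library. No pair of libraries of a group differed by as little as sampling noise. With nothing to show separate litters, p-values measure the spread between libraries. The ganglion cell, amacrine, microglia and red blood cell lists were computed as further checks: 0, 0, 1 (Mpeg1) and 0 of their genes were called.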

Additional observations from a re-analysis of the deposited data

How the results depend on the processing

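Since the members were chosen on this contrast, their values under other settings are given as descriptions. Without single libraries the log2 fold change of Edn2 ranged from -2.37 to -2.02. Edn3 was at -0.91 in limma, which adds 0.5 CPM, and at -1.77 to -1.36 without single libraries. Over the same omissions Edn1 ranged from -0.84 to 0.23, Ednra from -0.85 to -0.46, Ednrb from -0.53 to -0.13, Ece1 from -0.18 to -0.01 and Ece2 from 0.00 to 0.10. Over all genes, 63 were called (42 lower, 21 higher), against 135 (101 lower, 34 higher) with DESeq2. Omitting OIR-CIH replicate 1 left 29 and omitting OIR-Norm replicate 3 gave 97, with 22 to 81 lower and 7 to 31 higher. The cause was not tested. DESeq2 called 1 gene in each of the peptide processing, receptor coupling and vasoactive lists, and Gna14, 1 receptor coupling gene, was also called by limma, edgeR's legacy test and with every gene of at least 1 count. Over the omissions the vasoactive list had 0 to 1 called genes (Ptgfr, without OIR-Norm replicate 3) and the injury list 6 to 9.

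With the length of the longest transcript, Ece1 exceeded Ece2 by 0.061 and Edn1 exceeded Ednra by 0.71 on the log2 scale, and in the OIR-Norm libraries alone Ece2 minus Edn2 was -0.64. Per kilobase, the OIR-CIH ligand shares were 24.4% for Edn1, 72.8% for Edn2 and 2.79% for Edn3, and the OIR-Norm share of Edn3 was 2.21%. Without OIR-Norm replicate 2 the OIR-Norm share of Edn1 was 7.88%.

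Libraries with the same replicate number did not deviate together (r = 0.162, 0.143 and -0.238), so the numbers were not taken as pairs. With the number as a replicate block, Edn2 was at -2.19, 1 vasoactive gene (Ptgfr) was called, and the injury list had 8 called genes, the added one being Lif. The number of calls in the other lists did not change. Depth limits Edn3, with 7 to 37 reads per library, more than the other members.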
